A study of Mus musculus with 12 samples.

Results

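The accessibility of the HoxA gene cluster and of the Meis1 locus was examined in mouse myeloid progenitors with and without overexpression of HMGN1, a protein that binds nucleosomes. Accessible sites were taken from the deposited table of ATAC-seq peaks. In this assay a transposase cuts open DNA, so that more reads in a peak stand for a more open site. All peaks whose first base lay in a window of chromosome 6 (chr6:52095000-52225000, HoxA) or of chromosome 11 (chr11:18750000-18950000, Meis1), in the mm9 build of the mouse genome, were used. This gave 25 peaks of 60072 in the table, 12 for HoxA and 13 for Meis1. The windows were set around Hoxa2, Hoxa3, Hoxa4, Hoxa5, Hoxa6, Hoxa7, Hoxa9, Hoxa10 and Meis1. The study itself singled out HoxA genes from these samples, and it named Meis1 among genes with higher expression in HMGN1-OE progenitors. The direction of the HoxA and Meis1 counts below is therefore not independent evidence.

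Cells came from 4 groups of 3 libraries each. Wild-type and HMGN1-OE progenitors were each taken at 0 h, in medium with estradiol (E2), and 96 h after E2 was withdrawn. HMGN1-OE cells derive from mice that carry a human HMGN1 transgene. Cells of both genotypes were c-Kit positive bone marrow cells transduced with a retrovirus for HoxB8 fused to the estrogen receptor, and were grown in IL-3. The fusion holds cells as progenitors while E2 is present and lets them mature once it is removed. Every group thus carried a virally expressed Hox gene of another cluster. How many lines were immortalized per genotype is not given in the sources used here, so genotype and source of cells cannot be told apart. The study describes its 3 ATAC-seq replicates as biologically independent, while the sample titles give only a replicate number.

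HoxA genes encode homeodomain transcription factors that lie side by side in the order of their numbers and act along the body axis of the embryo and in blood. Hoxa9, Hoxa10 and Hoxa7 are known for high expression in hematopoietic stem and early progenitor cells and for a loss of expression as myeloid cells mature. Meis1 encodes a homeodomain protein of a different class that binds DNA together with Pbx and Hox proteins, and Hoxa9 with Meis1 transforms myeloid progenitors in mice.

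Since an accessible promoter is where these genes begin transcription, 4 RefSeq promoters of the loci are shown, Hoxa2, Hoxa7, Hoxa9 and Meis1. They were chosen to show the range of motif content. They are on the GRCm38.p6 build, and their positions cannot be set against the mm9 positions of the peaks. No peak was assigned to a gene, exon or intron, since no mm9 annotation was used here. Each runs 5′ to 3′ along the gene, all on the minus strand, from 250 bases before the start to 50 bases after it. Capitals mark matches, on either strand, to a Pbx-Hox composite (TGATNNAT), a Meis site (TGACAG), a Cdx site (TTTATG) or a CCAAT box (CCAAT).
Hoxa2 promoter, chr6:52164782-52165081: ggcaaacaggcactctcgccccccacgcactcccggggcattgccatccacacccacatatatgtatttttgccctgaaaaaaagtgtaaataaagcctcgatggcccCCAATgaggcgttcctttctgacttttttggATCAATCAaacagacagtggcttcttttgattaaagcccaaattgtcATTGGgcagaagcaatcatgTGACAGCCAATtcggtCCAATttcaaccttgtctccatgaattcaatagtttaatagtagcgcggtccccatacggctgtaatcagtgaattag
Hoxa7 promoter, chr6:52218524-52218823: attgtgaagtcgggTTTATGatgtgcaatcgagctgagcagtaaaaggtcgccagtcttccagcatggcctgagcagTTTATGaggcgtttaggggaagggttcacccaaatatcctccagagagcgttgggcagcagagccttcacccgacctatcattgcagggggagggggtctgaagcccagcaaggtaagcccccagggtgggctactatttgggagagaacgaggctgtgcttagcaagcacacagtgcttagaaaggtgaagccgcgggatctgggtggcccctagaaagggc
Hoxa9 promoter, chr6:52227321-52227620: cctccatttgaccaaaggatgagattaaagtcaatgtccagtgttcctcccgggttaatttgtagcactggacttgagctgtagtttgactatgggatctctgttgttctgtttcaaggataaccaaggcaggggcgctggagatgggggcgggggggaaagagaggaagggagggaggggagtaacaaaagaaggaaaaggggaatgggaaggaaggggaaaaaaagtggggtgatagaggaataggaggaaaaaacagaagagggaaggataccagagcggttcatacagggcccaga
Meis1 promoter, chr11:19018920-19019219: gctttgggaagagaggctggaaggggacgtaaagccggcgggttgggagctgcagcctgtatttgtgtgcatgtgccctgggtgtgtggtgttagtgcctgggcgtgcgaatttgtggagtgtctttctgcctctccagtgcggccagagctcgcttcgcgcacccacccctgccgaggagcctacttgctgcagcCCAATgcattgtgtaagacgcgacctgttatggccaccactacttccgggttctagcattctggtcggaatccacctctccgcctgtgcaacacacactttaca
Of the 9 genes, 8 had a promoter in the table, with 9 promoters in all because Hoxa10 had a pair. The Hoxa2 promoter held 1 Pbx-Hox match, 1 Meis match and 4 CCAAT boxes. No base was shared by matches to different motifs in these 9 promoters. The Hoxa7 promoter held 2 Cdx matches and none of the others, the Hoxa9 promoter held no match, and the Meis1 promoter held 1 CCAAT box. Over the 9 promoters, the Pbx-Hox letters were found in 1, the Meis letters in 2, the Cdx letters in 1 and CCAAT in 5. Among all 32851 RefSeq promoters of 300 bases, the shares were 8.8%, 19.2%, 11.9% and 37.4%. CpG dinucleotides, which are dense in the promoters of many developmental genes, ranged from 4 in Hoxa9 to 29 in Hoxa5, against a median of 7 over all promoters. A match is only a description of the letters.

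Reads were recovered from the deposited RPKM and scaled by trimmed means of M-values (TMM), which takes most peaks to have the same level in every library. Levels below are scaled RPKM, which is per length, and fold changes are on log2(scaled RPKM + 1), which understates changes at low levels. Calls are at an adjusted p under 0.05 from limma over all 57576 peaks that passed a filter on low reads. All 25 peaks passed. In 5 HoxA peaks (P6, P7, P9, P10 and P11) fewer than 3 wild-type libraries reached the 10-read minimum of that filter. P6, P7, P10 and P11 thus entered through HMGN1-OE libraries, and P9 through libraries of both genotypes. Of the 7 that wild-type libraries alone would have kept, 6 were called higher in HMGN1-OE at 0 h and 5 at 96 h. What share of all peaks kept by wild-type libraries alone was called higher is not given here. Both counts therefore stand without a matching background. Library totals were 21581528 to 35560463 reads, of which 24.7% to 50.0% lay in listed peaks. This share was lowest in HMGN1-OE at 96 h, 24.7% to 29.5%, and 1 wild-type library at 96 h stood apart at 50.0%, against 39.7% and 35.1% in its group. Over all tested peaks the median log2 change between genotypes was 0.20 at 0 h and -0.48 at 96 h on the deposited scale, against -0.03 and 0.02 after scaling. A global change in accessibility and a change in the share of reads outside peaks cannot be told apart here, so for each named peak the deposited value is given where its call differs. The identity of the cells was not checked against marker genes, which would need an mm9 annotation, and other genes of the pathway were not analysed here for the same reason.

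The HoxA peaks are called P1 to P12 and the Meis1 peaks M1 to M13 in order of position. The HoxA peaks were 195 to 887 bp wide, covered 5468 bp and spanned 112.6 kb. Meis1 peaks were 200 to 1092 bp wide, covered 7261 bp and spanned 143.5 kb. HoxA peaks held 0 to 356 reads per library with a median of 17.5, and Meis1 peaks 1 to 403 with a median of 46.0, so single HoxA peaks were measured with larger counting error.

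The HoxA peaks were little accessible in wild-type progenitors, P5 and P12 apart, and more accessible in HMGN1-OE progenitors. Summed over the 12 peaks, the wild-type libraries at 0 h held 231, 240 and 294 reads and the HMGN1-OE libraries 968, 981 and 1063. Per length this was 1.44, 1.55 and 1.46 scaled RPKM in wild-type against 5.58, 6.27 and 5.90 in HMGN1-OE. The mean was 1.48 ± 0.06 in wild-type and 5.92 ± 0.35 in HMGN1-OE (SD, n = 3), a ratio of 4.0. At 96 h the wild-type libraries were at 1.11, 0.97 and 1.40 and the HMGN1-OE libraries at 3.60, 4.12 and 4.07. Their means were 1.16 ± 0.22 and 3.93 ± 0.29, 3.39 times apart. Every HMGN1-OE library at 96 h thus lay above every wild-type library at 0 h. On the deposited scale the ratio was 4.94 at 0 h and 2.20 at 96 h. Ranked among all tested peaks, the median HoxA peak stood at percentile 14.0 in wild-type and 57.1 in HMGN1-OE at 0 h, and at percentile 7.2 and 36.9 at 96 h.

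**Figure D1:**
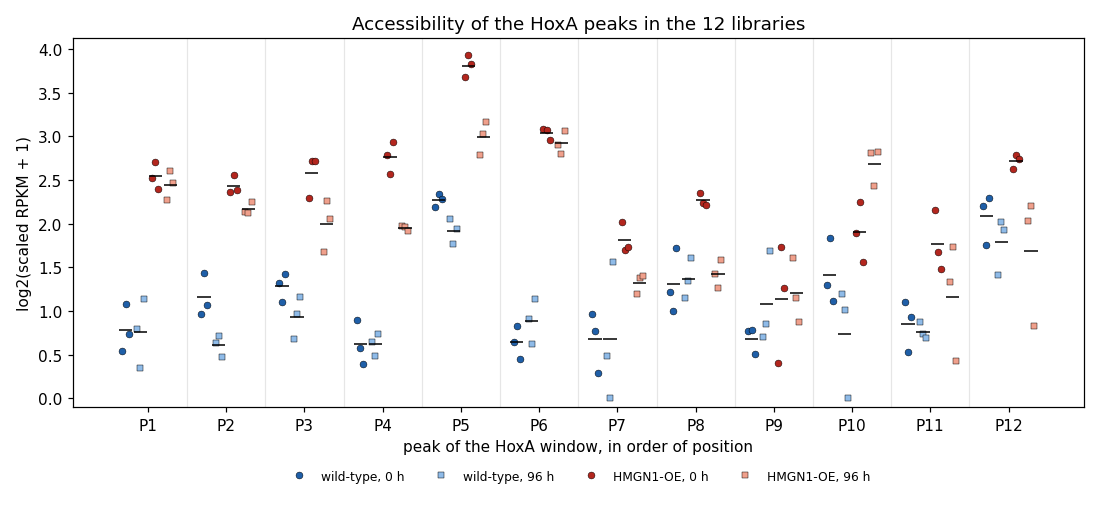
Accessibility of each HoxA peak, as log2(scaled RPKM + 1), in each of the 12 libraries. Points are single libraries and the short bars are the means of 3 libraries on that log scale, with P1 to P12 in order of position. In P1 to P6 the HMGN1-OE libraries lie above the wild-type libraries at both times, and P8 and P12 at 96 h overlap.

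At 0 h, 9 of 12 HoxA peaks were called higher in HMGN1-OE and 0 lower, where 8.70% of all tested peaks were called higher and 14.4% lower. In the lower direction 0 also passed an unadjusted p of 0.05 in limma and 0 were called by limma-voom, at both 0 h and 96 h. The median log2 fold change was 1.21, with a range of 0.45 to 2.39, against -0.03 over all tested peaks. In 10 of 12 peaks every HMGN1-OE library was above every wild-type library and in 0 below, against 16.5% and 21.8% of all tested peaks. With the deposited values 10 were called higher and 0 lower, against 14.2% and 2.61% of all tested peaks. P1 to P8 and P11 were called, and the same 9 peaks were called under all 4 scalings of the libraries. Among them, P6, P7 and P11 had entered the test through HMGN1-OE libraries. The 3 without a call were P9, P10 and P12, with log2 fold changes of 0.45 (adjusted p = 0.334), 0.48 (adjusted p = 0.235) and 0.63 (adjusted p = 0.105). Outside the window but within 500 kb of it lay 29 peaks, of which 24 were tested. There, 4 were called higher and 2 lower, with a median log2 fold change of 0.10. The difference between the window and its surroundings was not tested.

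The largest difference was at P6 (chr6:52175942-52176305, 364 bp). P6 was among the peaks that entered the test through HMGN1-OE libraries, the genotype in which it was higher, which limits its calls. Wild-type libraries at 0 h were at 0.56, 0.78 and 0.37 scaled RPKM, from 5 to 8 reads each, and HMGN1-OE libraries at 7.45, 7.39 and 6.76, from 77 to 86 reads. The groups did not overlap, and their means differed 12.64-fold. The log2 fold change was 2.39 ± 0.19 (SE, adjusted p = 3.37e-08). At 96 h P6 was at 0.88, 0.54 and 1.20 in wild-type and at 6.46, 5.97 and 7.34 in HMGN1-OE. It was the HoxA peak with the largest difference at this time too, 7.54-fold between means and 2.03 ± 0.19 on the log2 scale (adjusted p = 4.71e-07). Neither genotype changed detectably over 96 h at P6, with log2 changes of 0.25 (adjusted p = 0.252) in wild-type and -0.11 (adjusted p = 0.618) in HMGN1-OE. In HMGN1-OE the deposited values gave a fall of -0.68 instead (adjusted p = 0.00894), and an interaction of -1.06 (adjusted p = 0.00929).

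P4 (chr6:52162730-52163519, 790 bp) also differed strongly. At 0 h it was at 0.86, 0.49 and 0.31 in wild-type and at 5.91, 4.95 and 6.65 in HMGN1-OE, a ratio of 10.54 between means. The log2 fold change was 2.15 ± 0.20 (adjusted p = 3.32e-07). At 96 h wild-type libraries were at 0.56, 0.40 and 0.67 and HMGN1-OE libraries at 2.93, 2.90 and 2.77, so the groups still did not overlap. This difference was 1.33 ± 0.20 on the log2 scale (adjusted p = 0.000102). In HMGN1-OE P4 fell 2.04-fold over 96 h (log2 change -0.82 ± 0.20, adjusted p = 0.00154), while the wild-type change was 0.00 ± 0.20 (adjusted p = 0.987). The difference between these changes, -0.82, had an adjusted p of 0.0509 and was not called, though it was called on the deposited scale (-1.43, adjusted p = 0.00154).

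P5 (chr6:52171394-52172214, 821 bp) was the most accessible HoxA peak by the mean of every group. Wild-type libraries at 0 h were at 3.56, 4.08 and 3.87 and HMGN1-OE libraries at 11.76, 14.25 and 13.17. The log2 fold change was 1.54 ± 0.14 (adjusted p = 3.29e-07), a ratio of 3.40 between means. At 96 h the values were 3.14, 2.40 and 2.83 in wild-type and 5.88, 7.16 and 7.94 in HMGN1-OE, again without overlap. The genotype difference was then 1.07 ± 0.14 (adjusted p = 2.94e-05). P5 fell in HMGN1-OE by -0.82 ± 0.14 (adjusted p = 5.53e-05) and in wild-type by -0.35 ± 0.14 (adjusted p = 0.0354). The wild-type fall did not hold on the deposited scale (-0.15, adjusted p = 0.581), nor without replicate 2 or 3 of wild-type at either time (adjusted p of 0.0552 to 0.131). A difference between genotypes in the change over time was not called (-0.46, adjusted p = 0.123), but was called with the deposited values (-1.25, adjusted p = 0.00132).

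P1 (chr6:52108135-52109021), at 887 bp the widest HoxA peak, showed a difference that was about as large at both times. It was at 0.46, 1.11 and 0.67 in wild-type and 4.73, 5.55 and 4.25 in HMGN1-OE at 0 h, and at 0.73, 0.27 and 1.20 against 3.82, 5.07 and 4.52 at 96 h. HMGN1-OE libraries were above all wild-type libraries at each time. The log2 fold changes were 1.75 ± 0.22 (adjusted p = 1.42e-05) at 0 h and 1.69 ± 0.22 (adjusted p = 2.59e-05) at 96 h. The interaction estimate was -0.06 ± 0.31 (adjusted p = 0.923). Over time P1 was called only with the deposited values, in HMGN1-OE (-0.63, adjusted p = 0.0236).

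P2 (chr6:52141865-52142359, 495 bp) was at 0.96, 1.71 and 1.10 in wild-type and 4.14, 4.87 and 4.23 in HMGN1-OE at 0 h. At 96 h it was at 0.55, 0.64 and 0.39 in wild-type, below all libraries of the same genotype at 0 h, and at 3.38, 3.35 and 3.76 in HMGN1-OE. Genotype differences were 1.27 ± 0.19 (adjusted p = 8.58e-05) at 0 h and 1.56 ± 0.19 (adjusted p = 1.26e-05) at 96 h. P2 fell in wild-type by -0.55 ± 0.19 (adjusted p = 0.0163), a call that was lost on the deposited scale (-0.43, adjusted p = 0.122), without replicate 2 of wild-type at 0 h (adjusted p = 0.0934) and without replicate 3 at 96 h (adjusted p = 0.0522). A fall in HMGN1-OE was called with the deposited values alone (-0.78, adjusted p = 0.00400). P3, which lies 0.6 kb before P4, was called higher in HMGN1-OE at both times, with ratios of 3.48 and 3.29 between means.

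**Figure D2:**
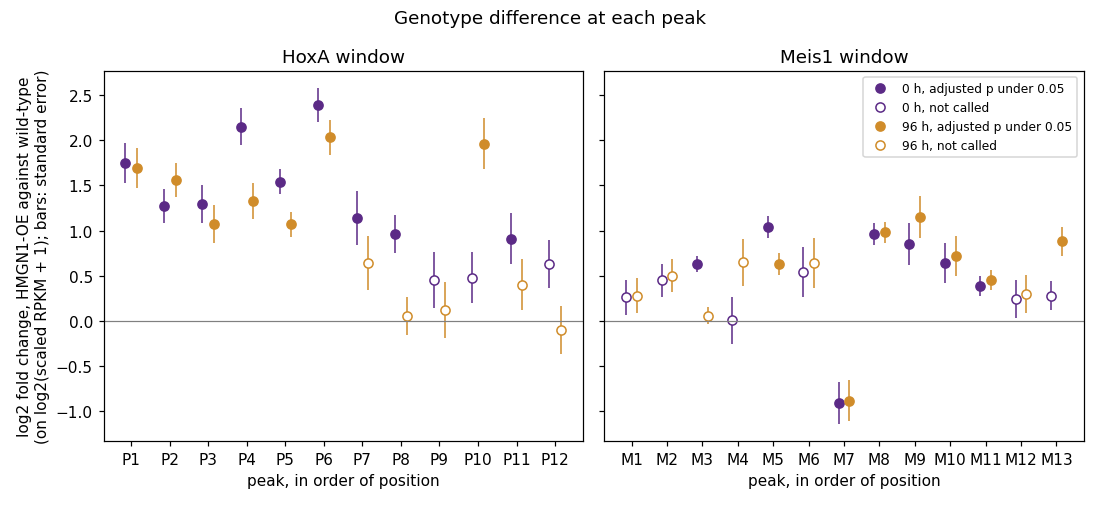
Log2 fold change of HMGN1-OE against wild-type at each peak at 0 h and at 96 h, on log2(scaled RPKM + 1), with standard errors. Filled points passed an adjusted p of 0.05 and open points did not. HoxA differences reach 2.39, while Meis1 differences lie between -0.91 and 1.15.

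Toward the end of the window the picture differed from peak to peak. P8 (chr6:52190317-52190599, 283 bp) was at 1.32, 1.0 and 2.30 in wild-type and 4.12, 3.70 and 3.65 in HMGN1-OE at 0 h. At 96 h the groups overlapped, with 1.22, 1.53 and 2.05 in wild-type and 1.69, 1.40 and 2.00 in HMGN1-OE. The genotype difference of 0.96 ± 0.21 (adjusted p = 0.00266) at 0 h was 0.06 ± 0.21 (adjusted p = 0.880) at 96 h. P8 fell 2.26-fold in HMGN1-OE over 96 h (-0.84 ± 0.21, adjusted p = 0.00205). The change differed between genotypes by -0.90 ± 0.30 with an adjusted p of 0.0455, which was lost when any of 9 of the 12 libraries was left out.

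P10 (chr6:52196402-52196634, 233 bp) behaved differently from its neighbours. At 0 h it was at 1.46, 2.57 and 1.16 in wild-type and at 2.71, 3.75 and 1.95 in HMGN1-OE, and the groups overlapped. At 96 h wild-type libraries were at 1.28, 1.02 and 0.00, and HMGN1-OE libraries at 5.99, 4.41 and 6.08. The 1 wild-type library without a read allows up to 0.62 scaled RPKM, from 3 reads. The genotype difference at 96 h was 1.96 ± 0.28 (adjusted p = 6.03e-05), 7.19-fold between means. P10 was the 1 HoxA peak called higher at 96 h than at 0 h in HMGN1-OE (0.79 ± 0.28, adjusted p = 0.0202), while it fell in wild-type (-0.68 ± 0.28, adjusted p = 0.0380) with overlapping libraries. This fall was not called under 8 of the alternatives, among them the deposited values (-0.50, adjusted p = 0.131), limma-voom (adjusted p = 0.0952) and the fits without replicate 1 or 2 of wild-type at 0 h. Without the library that held no read it was -0.32 (adjusted p = 0.285). The changes differed by 1.47 ± 0.39 (adjusted p = 0.0140). Unscaled, the rise in HMGN1-OE was 0.27 (adjusted p = 0.393) and the difference 0.78 (adjusted p = 0.104), and neither was called. Counts were low, 10 to 17 reads in wild-type at 0 h and 26 to 35 in HMGN1-OE at 96 h. P10 was also among the peaks that entered the test through HMGN1-OE libraries.

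P12 (chr6:52220546-52220753, 208 bp), the last HoxA peak, was at 3.60, 2.37 and 3.91 in wild-type and at 5.16, 5.88 and 5.69 in HMGN1-OE at 0 h. Those libraries did not overlap, although the difference of 0.63 was not called. It was called with the deposited values (0.89, adjusted p = 0.0182), as was the interaction (-1.37, adjusted p = 0.00456). At 96 h it was at 1.67, 3.04 and 2.79 in wild-type and at 3.07, 3.61 and 0.78 in HMGN1-OE, with means of 2.50 and 2.48. P12 fell in HMGN1-OE by -1.03 ± 0.27 (adjusted p = 0.00302). Of the others, P7 and P11 were called higher in HMGN1-OE at 0 h only, with ratios of 4.04 and 2.97, and P9 was called in no comparison. P7 had no read in 1 wild-type library at 96 h, which allows up to 0.48 scaled RPKM.

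**Figure D3:**
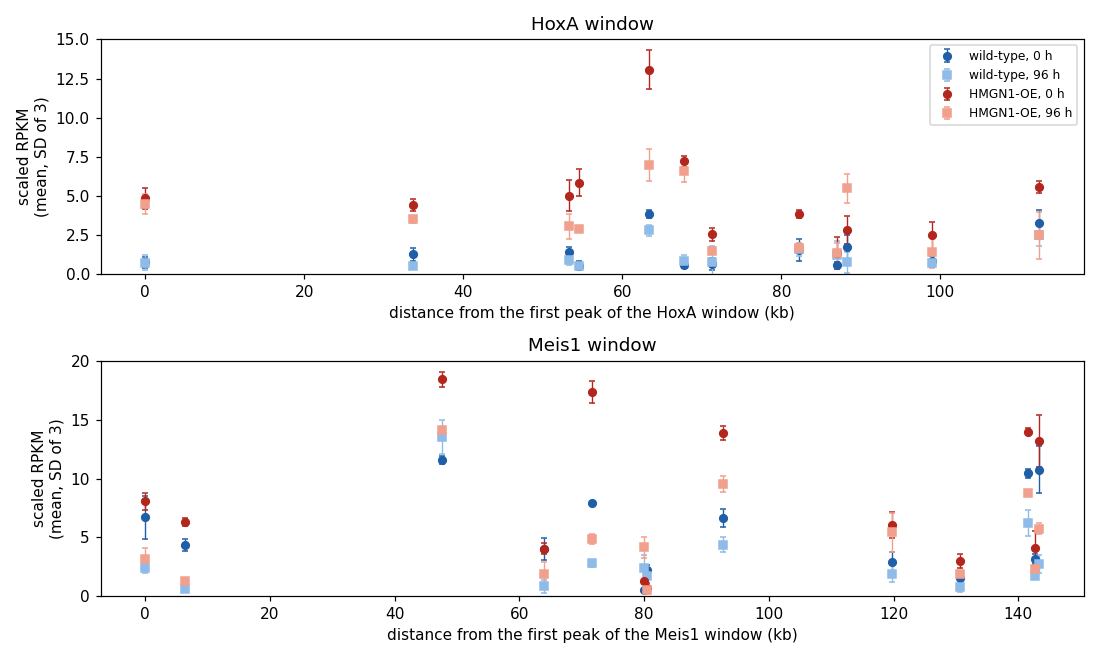
Group means of scaled RPKM with SD (n = 3) at each peak against its distance in kb from the first peak of the window, HoxA above and Meis1 below. The highest HoxA level, 13.06, is in HMGN1-OE at 0 h at P5, 63.3 kb from P1, and the highest Meis1 level, 18.45, is at M3, 47.6 kb from M1.

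After 96 h without E2, 7 of 12 HoxA peaks were called higher in HMGN1-OE and 0 lower, where 10.8% of all tested peaks were called higher and 11.2% lower. They were P1 to P6 and P10, and the same 7 were called under all 4 scalings. Among them, P6 and P10 had entered the test through HMGN1-OE libraries. The median log2 fold change was 1.07, with a range of -0.10 to 2.03. In these 7 peaks HMGN1-OE was above wild-type without overlap, and in 0 below, against 18.5% and 18.2% of all tested peaks. Of the peaks called at 0 h, 6 were also called at 96 h, and the share of all tested peaks called at both times is not given here. Within 500 kb around the window, 1 of 24 tested peaks was called higher and 2 lower at 96 h. In 9 of 12 HoxA peaks every HMGN1-OE library at 96 h was above every wild-type library at 0 h, against 32.7% of all tested peaks. P6, P7 and P10 were among them and had entered the test through HMGN1-OE libraries, which limits this count.

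Over 96 h, 3 HoxA peaks were called lower in wild-type (P2, P5 and P10) and 0 higher, against 30.7% lower and 33.2% higher among all tested peaks. For a rise, 0 also passed at an unadjusted p of 0.05 in limma or with limma-voom. The count of 3 was 0 on the deposited scale, and was 0 without replicate 2 of wild-type at 0 h or without replicate 3 of wild-type at 96 h. In HMGN1-OE, 5 were called lower (P3, P4, P5, P8 and P12) and 1 higher, against 27.0% lower and 32.0% higher. The median log2 change was -0.06 for wild-type and -0.54 for HMGN1-OE. This scale understates changes at low levels, and most wild-type HoxA peaks were low. Summed over the HoxA peaks, the mean per length fell 1.28-fold in wild-type and 1.51-fold in HMGN1-OE. On the deposited scale these falls were 1.06-fold and 2.38-fold. Samples at 96 h lay below those at 0 h without overlap in 2 HoxA peaks of wild-type and above in 0, against 32.3% and 34.4% of all tested peaks. In HMGN1-OE they lay below in 7 and above in 1, against 29.7% and 33.6%. The deposited values gave 10 peaks called lower in HMGN1-OE and 0 higher, against 52.2% and 18.4% of all tested peaks. The 1 peak called higher in HMGN1-OE, P10, lost its call without replicate 3 at 0 h or without replicate 1 or 3 at 96 h. The change over time differed between genotypes in 1 peak upward (P10) and 1 downward (P8), against 11% and 6.10% of all tested peaks. With the deposited values 8 went downward and 0 upward, where 46.0% and 0.853% of all tested peaks did.

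The Meis1 locus was already open in wild-type progenitors. Over the 13 peaks, wild-type libraries at 0 h were at 6.49, 5.65 and 6.26 scaled RPKM and HMGN1-OE libraries at 9.21, 9.81 and 9.36. The means were 6.13 ± 0.43 and 9.46 ± 0.31 (SD, n = 3), a ratio of 1.54. At 96 h wild-type libraries were at 3.29, 3.91 and 3.45 and HMGN1-OE libraries at 4.86, 5.37 and 5.35, with means of 3.55 ± 0.32 and 5.19 ± 0.29 and a ratio of 1.46. HMGN1-OE was above wild-type at both times without overlap, and both genotypes were lower at 96 h. On the deposited scale the ratio was 1.90 at 0 h and 0.95 at 96 h, so the direction at 96 h depended on the scaling. HMGN1-OE at 96 h lay below wild-type at 0 h, in contrast to HoxA. The median Meis1 peak stood at percentile 57.9 of all tested peaks in wild-type and 67.1 in HMGN1-OE at 0 h, and at percentile 28.8 and 51.0 at 96 h.

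**Figure D4:**
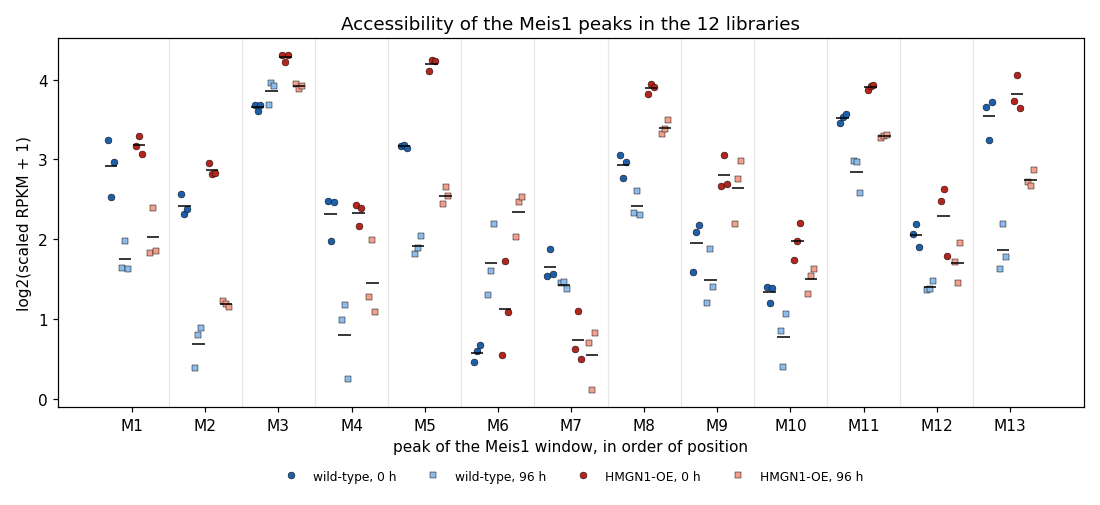
Accessibility of each Meis1 peak, as log2(scaled RPKM + 1), in each of the 12 libraries, with points for single libraries and short bars for the means of 3 libraries on that log scale. Most peaks are lower at 96 h than at 0 h in both genotypes, M6 is higher, and M7 is the peak where HMGN1-OE lies below wild-type.

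At 0 h, 6 of 13 Meis1 peaks were called higher in HMGN1-OE (M3, M5, M8, M9, M10 and M11) and 1 lower (M7), against 8.70% and 14.4% of all tested peaks. The median log2 fold change was 0.45. The same 7 peaks were called under all 4 scalings, but only 3 higher peaks were called without replicate 1 of wild-type at 0 h. At 96 h, 6 were called higher (M5, M8, M9, M10, M11 and M13) and 1 lower (M7), against 10.8% and 11.2%, with a median of 0.63. With the deposited values 1 was called higher and 2 lower at 96 h, where 2.02% and 46.9% of all tested peaks were. M9 alone was called higher under all 4 scalings at this time. Groups did not overlap, with HMGN1-OE above, in 7 peaks at 0 h and 7 at 96 h, against 16.5% and 18.5% of all tested peaks. HMGN1-OE was below in 1 peak at each time, against 21.8% and 18.2%. Only 2 tested peaks lay within 500 kb around the window, and neither was called between genotypes.

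M3 (chr11:18824728-18825349, 622 bp) was the most accessible Meis1 peak in every group mean. It was at 11.80, 11.17 and 11.78 in wild-type and 18.87, 17.69 and 18.80 in HMGN1-OE at 0 h, without overlap. At 96 h it was at 11.86, 14.59 and 14.09 in wild-type and at 14.36, 13.77 and 14.19 in HMGN1-OE. The genotype difference was 0.63 ± 0.09 (adjusted p = 6.10e-05) at 0 h and 0.06 ± 0.09 (adjusted p = 0.668) at 96 h. M3 fell in HMGN1-OE (-0.36 ± 0.09, adjusted p = 0.00189) and was not called in wild-type (0.20 ± 0.09, adjusted p = 0.0603). With the deposited values it was called higher over time in wild-type (0.45, adjusted p = 0.0216), and its genotype difference at 96 h was called in the lower direction (-0.51, adjusted p = 0.0129). The changes differed by -0.57 ± 0.13 (adjusted p = 0.00517), and this was the 1 Meis1 peak with a called interaction.

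M5 (chr11:18848713-18849380, 668 bp) showed the largest log2 fold change at 0 h among the called Meis1 peaks, with wild-type libraries at 7.99, 8.08 and 7.80 and HMGN1-OE libraries at 16.29, 17.98 and 17.87. The log2 fold change was 1.04 ± 0.12 (adjusted p = 5.90e-06), 2.18-fold between means. It was lower at 96 h in both genotypes, at 2.52, 2.72 and 3.12 in wild-type and 4.42, 5.32 and 4.85 in HMGN1-OE. Those falls were -1.25 ± 0.12 (adjusted p = 3.29e-08) and -1.65 ± 0.12 (adjusted p = 7.01e-10). The genotype difference at 96 h, 0.63 ± 0.12 (adjusted p = 0.000993), was 0.15 (adjusted p = 0.537) on the deposited scale, where the interaction was called (-1.18, adjusted p = 0.00114).

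M8 (chr11:18869823-18870571, 749 bp) differed between genotypes by a like amount at both times. At 0 h it was at 7.31, 5.84 and 6.85 in wild-type and 13.18, 14.36 and 14.07 in HMGN1-OE, and at 96 h at 4.03, 5.11 and 3.94 against 8.95, 9.38 and 10.27. No libraries overlapped between genotypes at either time. The differences were 0.96 ± 0.12 (adjusted p = 1.49e-05) and 0.98 ± 0.12 (adjusted p = 1.55e-05). With the deposited values the difference at 96 h was 0.44 (adjusted p = 0.0571) and the interaction -0.80 (adjusted p = 0.0186). M8 fell over 96 h in wild-type (-0.52 ± 0.12, adjusted p = 0.00101) and in HMGN1-OE (-0.50 ± 0.12, adjusted p = 0.00159), and the wild-type fall was not called unscaled (-0.29, adjusted p = 0.208).

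M9 (chr11:18896813-18897135, 323 bp) was at 2.00, 3.28 and 3.53 in wild-type and 5.37, 7.35 and 5.45 in HMGN1-OE at 0 h. At 96 h it was at 1.30, 2.69 and 1.65 against 3.58, 5.74 and 6.89, the largest Meis1 genotype difference at that time (1.15 ± 0.23, adjusted p = 0.00122). At 0 h the difference was 0.85 ± 0.23 (adjusted p = 0.00900), but the adjusted p was 0.0571 without replicate 1 of wild-type and 0.0528 without replicate 2 of HMGN1-OE. Its change over time was called in neither genotype after scaling, and as a fall in HMGN1-OE with the deposited values (-0.71, adjusted p = 0.00850).

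M7 (chr11:18857615-18858130, 516 bp) went the other way and was the only peak of the 25 called lower in HMGN1-OE after TMM scaling. It was at 1.91, 2.67 and 1.95 in wild-type and at 0.55, 1.15 and 0.41 in HMGN1-OE at 0 h, and at 1.73, 1.76 and 1.59 against 0.62, 0.08 and 0.78 at 96 h. The libraries of the genotypes did not overlap at either time. The differences were -0.91 ± 0.23 (adjusted p = 0.00749) and -0.88 ± 0.23 (adjusted p = 0.0105), that is 3.09-fold and 3.43-fold lower means. Without replicate 2 of HMGN1-OE at 96 h, the later difference had an adjusted p of 0.0656. Its HMGN1-OE libraries held 7 to 17 reads at 0 h and 1 to 10 at 96 h. M7 thus passed the filter on low reads through wild-type libraries, the genotype in which it was higher, which limits these calls. 

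Over 96 h, most peaks of the Meis1 window became less accessible in both genotypes. Of 13 peaks, 9 were called lower in wild-type and 1 higher, against 30.7% and 33.2% of all tested peaks, with a median log2 change of -0.65. In HMGN1-OE 9 were called lower and 1 higher, against 27.0% and 32.0%, with a median of -0.59. Of these, 8 peaks were lower in both genotypes, and the share of all tested peaks called lower in both is not given here. All tested peaks gave medians of -0.01 and 0.00. Libraries at 96 h lay below those at 0 h without overlap in 10 Meis1 peaks of wild-type and 9 of HMGN1-OE, against 32.3% and 29.7% of all tested peaks. They lay above in 2 and 1, against 34.4% and 33.6%. Without further scaling 5 were lower and 2 higher in wild-type, where 17.8% and 37.1% of all tested peaks were. In HMGN1-OE 11 were then lower and 1 higher, where 52.2% and 18.4% of all tested peaks were.

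The largest falls were at M2 (chr11:18783421-18784217, 797 bp). Wild-type libraries went from 4.95, 3.98 and 4.19 to 0.31, 0.74 and 0.85, and HMGN1-OE libraries from 6.73, 6.05 and 6.13 to 1.35, 1.29 and 1.22. The means fell 6.89-fold and 4.90-fold, with log2 changes of -1.73 ± 0.18 (adjusted p = 1.11e-07) and -1.67 ± 0.18 (adjusted p = 1.87e-07). HMGN1-OE libraries were above wild-type libraries at both times, though neither genotype difference was called (0.45, adjusted p = 0.0900, and 0.50, adjusted p = 0.0588). The deposited values gave a call at 0 h (0.71, adjusted p = 0.0282).

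M13 (chr11:18920363-18920562, 200 bp), the last Meis1 peak, fell in wild-type from 11.56, 8.46 and 12.21 to 2.10, 3.55 and 2.42 (-1.67 ± 0.16, adjusted p = 3.05e-08). In HMGN1-OE it fell from 12.30, 15.72 and 11.54 to 5.58, 5.33 and 6.27 (-1.07 ± 0.16, adjusted p = 1.18e-05). The genotypes overlapped at 0 h and not at 96 h, when HMGN1-OE was 2.13-fold higher (0.88 ± 0.16, adjusted p = 0.000666). That call was lost with the deposited values (0.39, adjusted p = 0.115). The difference between the falls, 0.61 ± 0.23, was not called (adjusted p = 0.0758). M1 (chr11:18777106-18778197), at 1092 bp the widest, fell from 8.47, 4.78 and 6.84 to 2.13, 2.93 and 2.08 in wild-type and from 8.0, 8.79 and 7.40 to 2.56, 4.27 and 2.63 in HMGN1-OE. The log2 changes of M1 were -1.17 ± 0.19 (adjusted p = 2.72e-05) and -1.15 ± 0.19 (adjusted p = 3.81e-05), and its genotype difference was called at neither time.

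M11 (chr11:18918629-18919486, 858 bp), among the 3 most accessible, fell in wild-type from 10.02, 10.52 and 10.82 to 6.87, 6.85 and 4.96 and in HMGN1-OE from 13.68, 14.08 and 14.26 to 8.65, 8.79 and 8.92. Its genotype difference was 0.39 ± 0.11 (adjusted p = 0.0167) at 0 h and 0.45 ± 0.11 (adjusted p = 0.00792) at 96 h. The call at 0 h was lost without replicate 1 of wild-type (adjusted p = 0.0511) or replicate 3 of HMGN1-OE (adjusted p = 0.0532). On the deposited scale the value at 96 h was -0.10 (adjusted p = 0.710), the 1 case in which a called difference changed sign. Its fall in wild-type (-0.68 ± 0.11, adjusted p = 3.31e-05) was then not called (-0.43, adjusted p = 0.0610), and its interaction was (-0.77, adjusted p = 0.0240). M4 and M12 also fell in both genotypes, while M10 was called lower in wild-type only.

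M6 (chr11:18857130-18857400, 271 bp) was the only Meis1 peak called higher at 96 h, in both genotypes. Wild-type libraries went from 0.38, 0.52 and 0.60 to 1.46, 2.04 and 3.57, and HMGN1-OE libraries from 0.47, 2.32 and 1.12 to 3.09, 4.52 and 4.78. The groups did not overlap. The means rose 4.72-fold and 3.17-fold, with log2 changes of 1.12 ± 0.28 (adjusted p = 0.00144) and 1.22 ± 0.28 (adjusted p = 0.000770). Counts were 3 to 6 reads in wild-type at 0 h and 14 to 20 at 96 h. M6 thus passed the filter on low reads through libraries at 96 h, the time at which it was higher, which limits these calls.

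**Figure D5:**
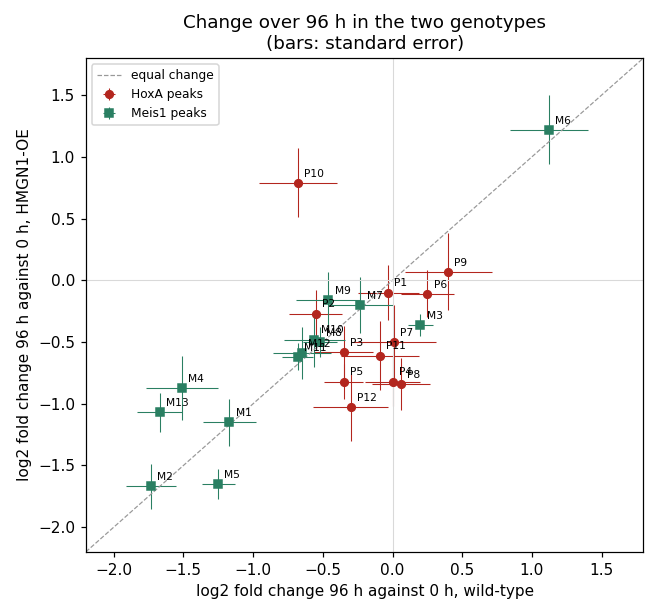
Log2 change from 0 h to 96 h in wild-type (horizontal axis) and in HMGN1-OE (vertical axis) for the 25 peaks, with standard errors and a dashed line of equal change. Most Meis1 peaks lie at negative values on both axes, M6 lies at 1.12 and 1.22, and P10 lies furthest above the line at -0.68 and 0.79.

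The most accessible peak of each window was compared with all tested peaks outside both windows by Pearson's r of log2(scaled RPKM + 1) over the 12 libraries, as a description. Closest to P5 were chr8:122940715-122941299 (r = 0.982), chr1:64492755-64493038 (r = 0.981) and chr4:131942037-131942385 (r = 0.981). Closest to M3 were chr15:60948474-60948935 (r = 0.959), chr14:53970552-53970984 (r = 0.947) and chr16:8530027-8530489 (r = 0.940). The 12 libraries fall into 4 groups, so such values mostly reflect the order of the group means, and P5 and M3 had different nearest peaks.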

How the data were processed

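ATAC-seq was performed by the authors with the Omni-ATAC protocol on nuclei of 12 samples, and reads were sequenced on a NextSeq500. According to the study's methods and the submitters' processing notes, reads were preprocessed with ChiLin, mapped with BWA to mm9 and peaks were called with MACS. The libraries that entered peak calling and its threshold are not stated in the sources consulted here. The deposited table held 1 RPKM value per peak and library for 60072 peaks, which the authors had divided by peak width and by library size.

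Each RPKM times width gave whole reads within 0.001 for 100.0% of values in every library, from which library totals were recovered. Peaks with at least 10 reads, in the depth of the median library, in 3 libraries and 15 reads in all were tested. Values were scaled by TMM (trimming 30% of ratios and 5% of levels), and log2(scaled RPKM + 1) was fitted with 4 group means in limma 3.58.1 (R 4.3.3), with empirical Bayes moderation, trend and robust settings. Tests were two-sided, with Benjamini-Hochberg adjustment over 57576 peaks. The fit was tested on simulated data. Tables and figures were made with Python 3.11.15, pandas 2.3.3 and matplotlib 3.10.9. Groups and replicate numbers came from the sample titles. Named in each window were the 3 most accessible peaks, up to 2 called peaks with the largest change per direction in each comparison, the widest peak, and the steadiest peak above the median level. The windows, members and motifs were chosen with earlier results of these data known. Alternatives were the deposited RPKM, median-ratio (RLE) factors, scaling to reads in peaks, pseudocounts of 0.5 and 2, no filter, limma-voom on recovered reads, fits on the compared groups only, a replicate block, membership by any overlap with the window, and leaving out each library. Same-numbered samples were not paired by the labels. Read floors cover counting error only.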

Additional observations from a re-analysis of the deposited data

Results flagged for a closer look

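At 3 peaks the change over 96 h differed between the genotypes by limma's interaction test, 1 upward and 2 downward of 25, where 11% of all tested peaks were called upward and 6.10% downward. The difference (change in HMGN1-OE minus change in wild-type, on the log2 scale) was -0.57 at M3, 1.47 at P10 and -0.90 at P8. M3 passed the test under every alternative run. P10 did not pass with the deposited RPKM (0.78, adjusted p = 0.104) or without replicate 2 of wild-type at 0 h (1.25, adjusted p = 0.0505). P8 did not pass with a pseudocount of 0.5 (-1.06, adjusted p = 0.0593), with limma-voom (-1.11, adjusted p = 0.197) or without any of 9 libraries, with values of -0.92 to -0.76.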

How the results depend on the processing

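The counts of HoxA peaks higher in HMGN1-OE stayed within 1.5 times the reported counts under every alternative run. With the deposited RPKM, called HoxA peaks were 0 lower over time in wild-type, 0 higher and 10 lower over time in HMGN1-OE, and 0 higher and 8 lower for the interaction. Meis1 peaks were then 1 higher and 2 lower in HMGN1-OE at 96 h, 2 higher and 5 lower over time in wild-type, and 4 lower for the interaction, and M11 at 96 h had a genotype difference of -0.10 (adjusted p = 0.710). Scaled to reads in peaks, HoxA had 1 lower over time in wild-type and 2 lower for the interaction, and Meis1 had 2 higher over time in wild-type and 2 lower for the interaction. RLE factors gave 2 HoxA peaks lower for the interaction. A pseudocount of 0.5 gave 0 HoxA peaks higher over time in HMGN1-OE and 0 lower for the interaction, and a pseudocount of 2 gave 2 HoxA and 2 Meis1 peaks lower for the interaction. Limma-voom gave 0 HoxA peaks lower for the interaction, and the fit on the compared groups only gave 1 HoxA peak lower over time in wild-type. The cause was not tested.

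Leaving out 1 library at a time gave, for HoxA, 0 to 3 peaks lower over time in wild-type, 0 to 1 higher over time in HMGN1-OE, and 0 to 1 higher and 0 to 1 lower for the interaction. For Meis1 it gave 3 to 7 higher at 0 h (3 without replicate 1 of wild-type at 0 h), 0 to 1 lower in HMGN1-OE at 96 h (0 without replicate 2 of HMGN1-OE at 96 h), 1 to 2 higher over time in wild-type (2 without replicate 1 of wild-type at 96 h), and 0 to 1 higher for the interaction. Interaction calls of HoxA upward were 0 without replicate 2 of wild-type at 0 h. Without the wild-type library that stood apart at 96 h, HoxA counts stayed in the ranges above. Same-numbered samples did not deviate together (r of -0.041 to 0.058), and the replicate block left 9 HoxA peaks higher at 0 h and 7 at 96 h. P7, P9 and P11 held at most 26 reads in any library, which limits them most.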
